A study of Mus musculus with 6 samples.

Results

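The subunits of the mitochondrial respiratory chain that are encoded in the nucleus were examined in lungs of mouse embryos at E18.5, near the end of gestation. The members are genes whose symbol starts with Ndufa, Ndufb, Ndufc, Ndufs, Ndufv, Uqcr, Cox4 to Cox8 or Atp5, or is Sdha, Sdhb, Sdhc or Sdhd, without the Ndufaf assembly factors. This gave 82 of the 18193 genes with a probe set that names exactly 1 gene: 36 of complex I, 4 of complex II, 8 of complex III, 17 of complex IV and 17 of complex V. The gene table holds 88 protein coding genes of these names, and the other 6 were not analysed here. The series asks which genes depend on GATA6, a zinc finger transcription factor of endodermal organs. Total RNA from 3 lungs labelled wild type (WT 1 to WT 3) and 3 labelled GATA6 KO (KO 1 to KO 3) was hybridised to Affymetrix Mouse430_2 arrays. The allele, a Cre driver if any, the mouse strain, and whether each array holds the lung of 1 embryo are not given in the sources used here, and p-values measure the spread between arrays, which may be technical.

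The respiratory chain moves electrons from NADH and succinate to oxygen across complexes I to IV, pumps protons out of the mitochondrial matrix, and lets them return through complex V, the ATP synthase. A small set of core subunits carries the redox centres and catalytic sites, and many small accessory subunits surround them. Most subunits are encoded in the nucleus and present in nearly every cell, while a few complex IV subunits exist as paralogs that are used in heart and skeletal muscle, testis or lung. In whole lung RNA, fewer cells of a type and less RNA per cell cannot be told apart.

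Every level below is log2(intensity + 16) of 1 probe set per gene, the one with the highest mean, and every difference is the mean of the KO arrays minus that of the WT arrays on this scale. Array medians of the deposited intensities lay between 20.6 and 24.1. On the log2 scale the median over all genes was lowest in KO 3, at 6.72, and highest in KO 1, at 7.01. Gata6 read 11.12, 10.26 and 10.42 in WT 1 to 3 and 11.58, 11.39 and 11.19 in KO 1 to 3, all KO arrays above WT (0.79, SE 0.24, adjusted p = 0.964 in limma). Where its probe set lies relative to the deleted part is not known here. The labels are therefore unchecked by the targeted gene, and KO and WT below mean the arrays so labelled. Lung markers were present: Sftpc, Sftpb, Scgb1a1 and Ager read above 12 on all 6 arrays, and Nkx2-1 was dim, that is, with both group means below 6.88, the median of all genes. Cldn18, an alveolar tight junction gene of the same list, had all KO arrays below WT (-3.04, SE 0.68, adjusted p = 0.832 in limma). All 6 endothelial markers read lower in the KO arrays, with a median of -0.69 and none past the test. Fluidics station 1 held WT 1 and WT 2, and station 2 the other 4 arrays. The KO arrays were scanned after the WT arrays, so an effect of scanning order cannot be told apart from one of group.

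No respiratory chain gene passed the test, and most differences were small. Of the 82 members 49 read higher and 33 lower in the KO arrays, with a median difference of 0.03 and a range from -0.33 (Uqcrc1) to 0.65 (Cox7c). The share that read higher was 59.8%, against 58.4% of all genes (median 0.00); among those that were not dim it was 56.8% of 74 members against 45% of 9310 genes (median -0.03). None of the 82 passed an adjusted p of 0.05 in limma (the lowest adjusted p was 0.964), where 0.0055% of all genes tested passed. At an unadjusted p under 0.05 there was 1 member, Cox8b, or 1.22% of the members against 4.58% of all genes. All 3 KO arrays lay above all 3 WT arrays in 6 members (7.32%, against 5.89% of all genes) and below them in 4 (4.88%, against 3.81%). These shares are near the background. The count of members that read higher was 59 with each array centred on its median and 48 with quantile normalisation. It was 44 with fluidics station as a block, where the comparison rests on WT 3 alone. Centring adds the same amount to the difference of every gene, so the count over all genes moves with it. Shares over all genes are not given for these settings, and the counts are not a result about the members.

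How tightly the data bound a difference is given by its 95% interval in limma. The interval lay within 0.5 of 0 on the log2 scale for 59 of the 82 members (72.0%), against 52.8% of all genes. Among those not dim it did so for 54 of 74 members (73.0%), against 28.5% of genes. For dim genes near the floor, such as Ndufb4, a narrow interval need not bound a change in the gene. The interval lay within 1, a 2-fold change, for 79 of the 82 members. The other 3 were Cox7c, Cox6a2 and Ndufs5, whose intervals reached 1.44, 1.06 and 1.02. Among genes with a mean level over 10, 54 of 71 members (76.1%) had an interval within 0.5, against 1317 of 2821 genes (46.7%). The levels of the members also moved little from array to array. Of the 74 members not dim, 44 (59.5%) spanned less than 0.5 over the 6 arrays, against 31.4% of genes not dim. That comparison was not matched for level. Other lists described below had an interval within 0.5 of 0 for 87.5% (cytosolic ribosome) and 88.9% (exchange of nucleotides and phosphate) of their genes. Of these genes 2 in each list were dim. The share was 51.3% for the mitochondrial ribosome and 64.7% for the citrate cycle and pyruvate dehydrogenase.

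**Figure D1:**
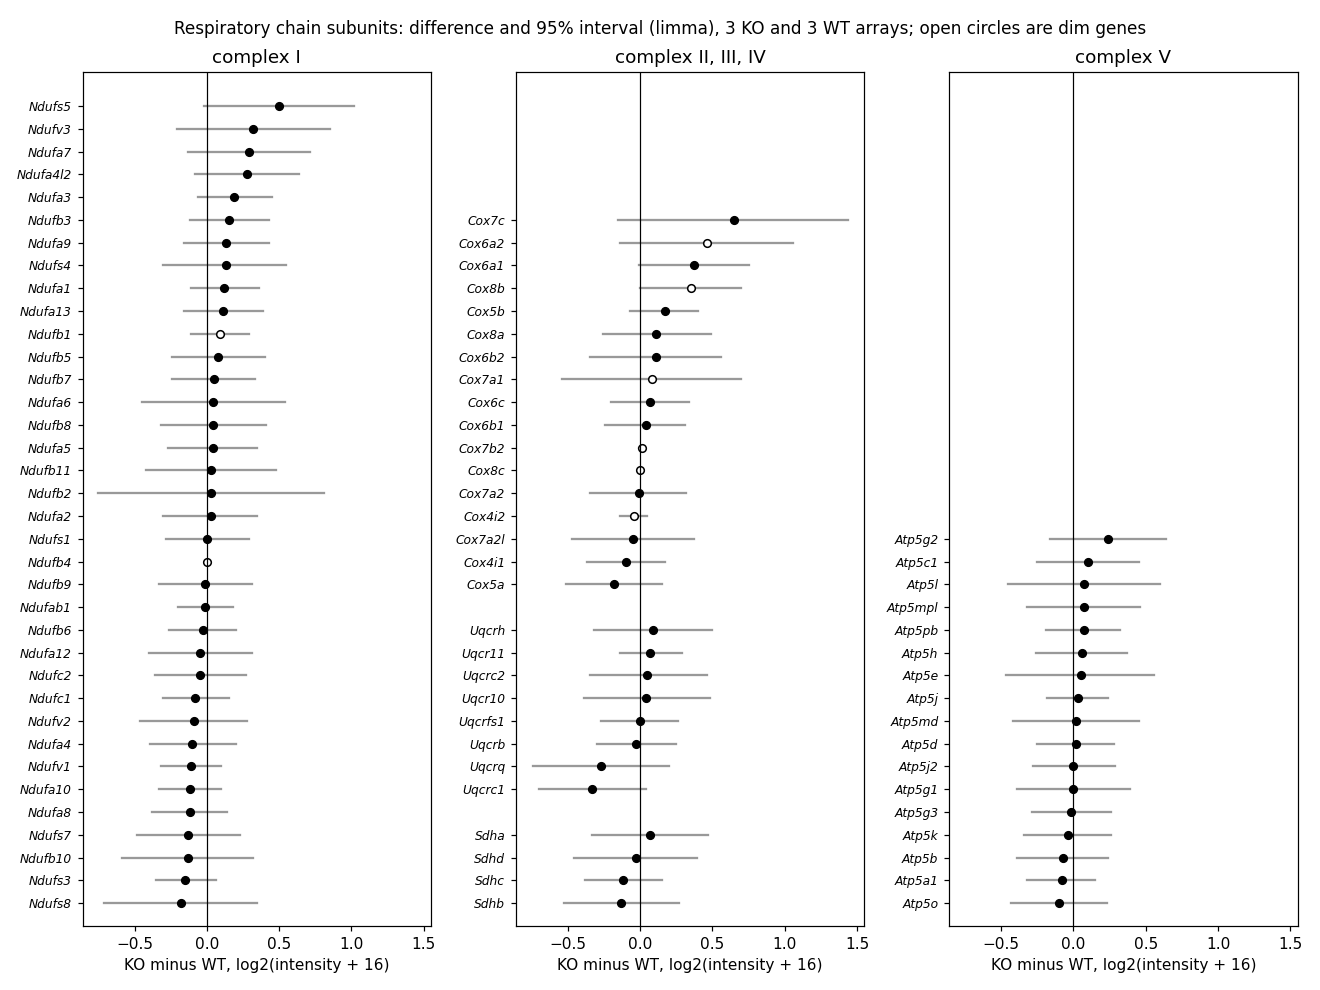
Differences between KO and WT arrays (x axis, log2 scale) for the 82 members by complex, with the 95% interval of limma as a grey line and open circles for the 8 dim genes. Every interval but that of Cox8b, whose lower end is at 0.00, spans 0, and complex V runs from -0.10 to 0.24 and complex II from -0.13 to 0.07.

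Complex I, which takes electrons from NADH, had 21 of 36 members higher and 15 lower, with a median of 0.03 and none past the test. The 6 core subunits measured lay between -0.18 and 0.00. Ndufs1, the large iron-sulfur subunit, read 10.39, 10.69 and 10.68 in WT 1 to 3 and 10.68, 10.49 and 10.60 in KO 1 to 3. The groups overlapped fully, with a difference of 0.00 (SE 0.12, 95% interval -0.28 to 0.29). Ndufv1, the subunit that binds NADH, read 10.14, 10.14 and 10.29 in the WT arrays and 10.04, 10.11 and 10.10 in the KO arrays. All KO arrays lay just below all WT arrays, by -0.11 on average (SE 0.08), and 1 of its 3 probe sets had the other sign.

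Ndufs3, another core subunit, was the second member of complex I with separate groups and lower KO levels. It read 11.38, 11.27 and 11.22 in the WT arrays and 11.19, 11.17 and 11.07 in the KO arrays, a difference of -0.15 (SE 0.08, unadjusted p = 0.129, adjusted p = 0.964 in limma). The remaining core subunits measured, Ndufv2, Ndufs7 and Ndufs8, differed by -0.09 (SE 0.15), -0.13 (SE 0.15) and -0.18 (SE 0.21), with overlapping arrays. For Ndufs8 KO 1 read 13.10 where the other 5 arrays lay between 13.68 and 13.89, and without KO 1 the difference was 0.05. Ndufa10, an accessory subunit of the matrix side that is among the 5 lower members with the smallest p, differed by -0.12 (SE 0.09).

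Ndufs5, a small accessory subunit, had the largest difference in complex I. It read 10.37, 10.58 and 10.49 in the WT arrays and 10.52, 11.30 and 11.13 in the KO arrays. KO 2 and KO 3 stood above every WT array and KO 1 lay among them. The difference was 0.50, or 1.42-fold (SE 0.21, 95% interval -0.02 to 1.02, adjusted p = 0.964), and 0.73 (SE 0.11, adjusted p = 0.366) without KO 1. Its only probe set gives no second reading.

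Ndufa4 and Ndufa4l2 carry complex I names, but Ndufa4 is known to sit in complex IV, and its paralog Ndufa4l2 is known as a gene induced in low oxygen and as a pericyte gene in lung. Ndufa4 read 11.36, 11.35 and 11.32 in the WT arrays and 11.04, 11.46 and 11.25 in the KO arrays, with overlap and a difference of -0.10 (SE 0.12). Ndufa4l2 read 8.58, 8.59 and 8.47 in the WT arrays and 8.84, 8.60 and 9.04 in the KO arrays. Its groups did not overlap, although KO 2 and WT 2 were nearly equal, and the difference was 0.28 (SE 0.15, adjusted p = 0.964). Beside it, the 12 genes of a hypoxia response list had a median difference of 0.25, with 9 higher and none past the test, and the 10 pericyte markers had a median of -0.06, with 4 higher; their part in the Ndufa4l2 reading was not tested.

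Complex II, succinate dehydrogenase, is the enzyme shared with the citrate cycle and has only nuclear-encoded subunits. Its 4 genes differed by between -0.13 and 0.07, and all overlapped between groups. Sdha, the flavoprotein that oxidises succinate, read 10.63, 11.04 and 11.10 in the WT arrays and 11.19, 10.82 and 10.97 in the KO arrays, a difference of 0.07 (SE 0.16). Sdhb, the iron-sulfur subunit, read 11.98, 11.81 and 11.71 and then 11.39, 11.87 and 11.86, a difference of -0.13 (SE 0.16). The membrane anchors Sdhc and Sdhd differed by -0.12 (SE 0.11) and -0.03 (SE 0.17).

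Complex III passes electrons from ubiquinol to cytochrome c. Of its 8 members 4 read higher and 4 lower, with a median of 0.02. Uqcrc1, a core protein of the matrix side, had the lowest difference of all members. It read 10.62, 10.75 and 10.80 in WT 1 to 3 and 10.57, 10.51 and 10.08 in KO 1 to 3. All KO arrays lay below all WT arrays, KO 3 by far the lowest, and KO 1 came within 0.05 of WT 1. The difference was -0.33 (1.26-fold lower, SE 0.15, 95% interval -0.70 to 0.04, adjusted p = 0.964), and over leaving out each array it ran from -0.42 to -0.18.

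Its partner Uqcrc2 did not share that pattern: it read 13.51, 13.29 and 13.48 in the WT arrays and 13.26, 13.39 and 13.79 in the KO arrays, with KO 3 the highest and a difference of 0.05 (SE 0.17). Uqcrfs1, the Rieske iron-sulfur protein at the catalytic centre, read 12.07, 11.93 and 11.78 in the WT arrays and 12.02, 11.82 and 11.93 in the KO arrays, with a difference of -0.00 (SE 0.11). Uqcrq, a small subunit, differed by -0.27 (SE 0.19), and 3 of its 4 probe sets had the other sign.

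Complex IV, cytochrome c oxidase, reduces oxygen to water. It had the widest range, from -0.18 to 0.65, with 12 of 17 members higher, 5 lower and a median of 0.07, but 6 of the 17 were dim. Cox4i1, the general form of subunit 4, read 14.58, 14.53 and 14.53 in the WT arrays and 14.36, 14.48 and 14.51 in the KO arrays, all below WT, with a difference of -0.10 (SE 0.11). Cox6a1, the general form of subunit 6a, read 13.93, 13.75 and 14.09 in the WT arrays and 14.52, 14.15 and 14.21 in the KO arrays, all above WT. That is a difference of 0.37, or 1.29-fold (SE 0.16, 95% interval -0.01 to 0.75, adjusted p = 0.964). The difference was 0.26 to 0.45 with any 1 array left out. It fell to 0.203 with its other probe set. Within fluidics station 2, where WT 3 is the only WT array, it was 0.203 too.

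Cox5b, which binds zinc, also had all KO arrays above all WT arrays, with a difference of 0.17 (SE 0.10); it was named after its values were seen. Cox5a, its neighbour in the complex, differed by -0.18 (SE 0.13), with KO 3 lowest at 12.43. Cox7c, an accessory subunit, read 7.24, 6.45 and 7.24 in the WT arrays and 7.21, 7.68 and 7.98 in the KO arrays. KO 1 fell among the WT arrays and WT 2 stood low, and the WT mean of 6.98 was only just above the dim level of 6.88. The difference was 0.65 (SE 0.32, adjusted p = 0.964 in limma), and 0.38 at its lowest when 1 array was left out. It was 0.721 with a pseudocount of 1, 0.491 with one of 64 and 0.495 with its other probe set. Within fluidics station 2, where WT 3 is the only WT array, it was 0.385.

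The muscle isoforms were dim in both groups. Cox8b, the heart and skeletal muscle form of subunit 8, read 5.96, 6.02 and 5.79 in the WT arrays and 6.17, 6.32 and 6.32 in the KO arrays. All KO arrays lay above all WT arrays, with a difference of 0.35 (SE 0.14, unadjusted p = 0.0498, adjusted p = 0.964), and of 0.205 with a pseudocount of 64. Cox6a2, the muscle form of subunit 6a, read 5.14, 5.14 and 4.53 and then 4.98, 5.65 and 5.57, with overlap and a difference of 0.46 (SE 0.24); its other probe set differed by 0.00. That difference was 0.836 with a pseudocount of 1 and 0.199 with one of 64. It was 0.868 within fluidics station 2, where WT 3, the lowest array for this gene, is the only WT array. Cox7a1, the muscle form of subunit 7a, read 6.58, 6.52 and 6.36 and then 6.11, 6.92 and 6.67, a difference of 0.08 (SE 0.25).

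Cardiac muscle markers were present in these lungs. Of 10 listed genes 6 were not dim, among them Myl7, Actc1 and Tnnt2, and Nppa, Pln, Ryr2 and Mybpc3 were dim. Their summed intensity was 5223, 6801 and 3439 in WT 1 to 3 and 2960, 6238 and 8394 in KO 1 to 3. KO 1 was the lowest array for this sum and for Cox7a1, and WT 3 the lowest for Cox6a2 and Cox8b and lower than the other WT arrays for the sum and for Cox7a1. Other readings did not follow the sum: Cox8b read 6.17 in KO 1, above every WT array, and KO 2, not KO 3 with the highest sum, was highest for Cox6a2 and Cox7a1. The part of heart muscle RNA in the muscle isoform readings was not tested. All 8 skeletal muscle markers and all 4 brown fat markers measured, Ucp1 included, were dim.

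The general partners of these isoforms were not dim. Cox7a2 read 14.15, 14.02 and 13.97 in the WT arrays and 13.81, 14.13 and 14.15 in the KO arrays, a difference of -0.01 (SE 0.14). Cox8a differed by 0.11 (SE 0.15), Cox6b1 by 0.04 (SE 0.11) and Cox7a2l, a factor of supercomplex assembly that resembles subunit 7a, by -0.05 (SE 0.17). Cox4i2, the form of subunit 4 known from adult lung, read between 4.61 and 4.77 on all 6 arrays, near the lowest levels of the array. The testis forms Cox8c and Cox7b2 were at that floor too, while Cox6b2, also known from testis, read 9.35, 9.83 and 9.22 in the WT arrays and 9.44, 9.74 and 9.54 in the KO arrays, with a difference of 0.11 (SE 0.19). A dim reading of 1 probe set does not show that a gene is silent.

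**Figure D2:**
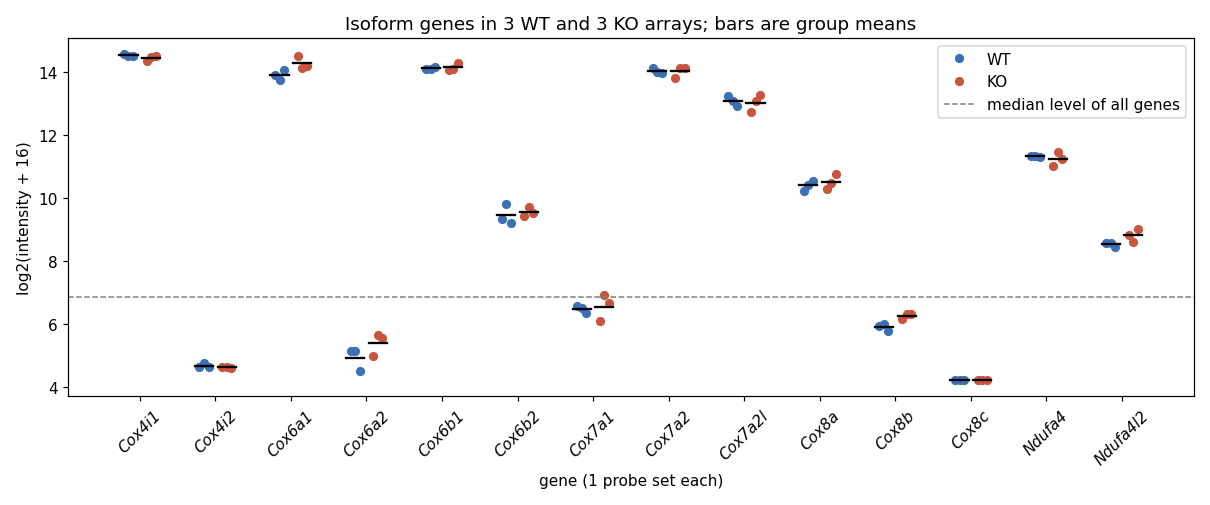
Levels (y axis, log2(intensity + 16)) of 14 isoform genes in the 3 WT (blue) and 3 KO (red) arrays, with bars at group means and a dashed line at 6.88, the median level of all genes. Groups overlap in 10 of the genes; KO lies above WT in Cox6a1, Cox8b and Ndufa4l2 and below it in Cox4i1, none past the test, and levels of different genes come from different probe sets and are not compared.

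Complex V, the ATP synthase, had 14 of 17 intervals within 0.5 of 0. Its 17 members, none of them dim, differed by between -0.10 (Atp5o) and 0.24 (Atp5g2), with a median of 0.02, 11 higher and 6 lower, and all 17 overlapped between groups. Atp5b, the catalytic beta subunit, read 13.37, 13.49 and 13.56 in the WT arrays and 13.61, 13.30 and 13.27 in the KO arrays, a difference of -0.07 (SE 0.13). Atp5a1, the alpha subunit, read 13.29, 13.32 and 13.32 and then 13.35, 13.15 and 13.19, a difference of -0.08 (SE 0.10), and 2 of its 3 probe sets had the other sign. Atp5g2 and Atp5o were named after their values were seen. The gamma subunit gene Atp5c1 differed by 0.10 (SE 0.14). Atpif1, which encodes the inhibitor of the synthase and falls outside the rule by its symbol, read 13.41, 13.12 and 13.33 and then 13.35, 13.34 and 13.48, a difference of 0.10 (SE 0.12).

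The members' levels spread more within the KO group than within the WT group, with KO 1 lowest. The median over the members of the level relative to each gene's own mean was 0.02, -0.01 and 0.00 in WT 1 to 3 (SD 0.02). In KO 1 to 3 it was -0.16, 0.09 and 0.10 (SD 0.15). Wider KO spread was not particular to the members. The SDs in WT and KO were 0.04 and 0.14 for the mitochondrial ribosome and 0.02 and 0.06 for the cytosolic ribosome. They were 0.05 and 0.08 for genes not dim, and 0.06 and 0.02 for regulators of mitochondrial biogenesis. KO 1 was the lowest of the KO arrays for 54 of the 74 members that were not dim (73.0%), against 28.3% of all genes that were not dim. Among genes with a mean over 10 the shares were 73.2% of members and 37.0% of genes. It was the lowest of all 6 arrays for 42 of the 74 (56.8%), against 14.2% of genes that were not dim and 45% of the cytosolic ribosome genes. In complex I the medians were -0.18, 0.09 and 0.11 in KO 1 to 3, and in complex V they were -0.18, 0.10 and 0.10.

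Over 16 genes, the core subunits named above and the 4 of complex II, the medians were -0.06, -0.06 and 0.01 in KO 1 to 3, against -0.17, 0.11 and 0.11 over the 58 other members that were not dim. KO 1 was the lowest of all 6 arrays for 8 of the 16 (50.0%) and for 34 of the 58 (58.6%), and the highest for 3 of the 16, Sdha, Atp5b and Atp5a1. This division was made after the values were seen, and a difference between the sets was not tested. Ndufb2, an accessory subunit of complex I named after its values were seen, read 12.12, 11.82 and 11.48 in the WT arrays and 11.20, 12.29 and 12.02 in the KO arrays.

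KO 1 was left out after the members were seen to be lowest there. Genes not dim had their highest array median there, at 0.08. A contrast between members and genes without KO 1 therefore restates that choice and adds no support. Without KO 1, 60 of the 82 members (73.2%) read higher in the KO arrays, against 51.5% of all genes, with a median of 0.11 against 0.00. Among those that were not dim it was 54 of 74 members (73.0%) against 40.4% of genes, with a median of 0.11 against -0.07. Of the members 8 then had an unadjusted p under 0.05, 7 of them higher, which is 9.76% against 8.64% of all genes (592 of those 1572 genes were higher), and none passed (lowest adjusted p = 0.366 in limma, for Ndufs5). Leaving out KO 2 gave 37 of 82 higher and a median of -0.02, and leaving out KO 3 gave 34 higher. The direction of the members as a group therefore rested on which KO arrays were kept. Of the 82 differences 45 changed sign when some array was left out. Shares over all genes are not given here for leaving out KO 2 or KO 3, or for the sign changes.

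**Figure D3:**
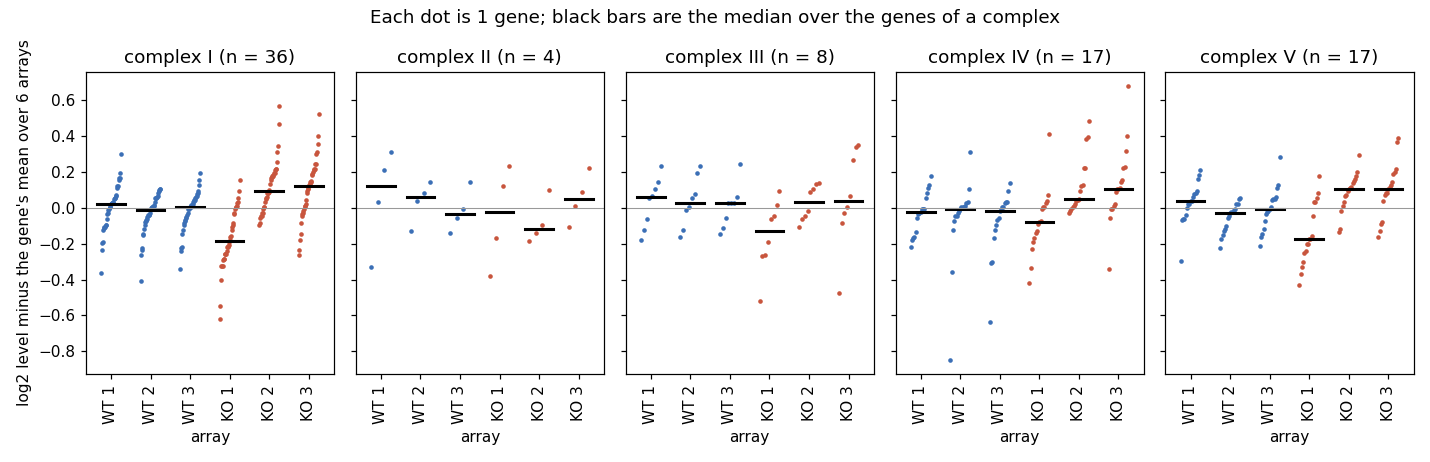
Level of each member (1 dot, log2 scale) relative to its mean over the 6 arrays, by array and complex, with WT in blue, KO in red and black bars at the median over genes. The KO 1 bar lies below the other KO bars in complexes I, III, IV and V, at -0.18, -0.13, -0.08 and -0.18; in complex II, with 4 genes, KO 2 is lowest at -0.12.

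Some marker sums were also lowest in KO 1. The summed intensity of 5 white blood cell markers was 22401, 27913 and 12394 in the WT arrays and 6577, 33448 and 24326 in the KO arrays. Of the 5 only Lyz2 was lowest in KO 1, at 12.42, and the median level of the list relative to its means was -0.18 there and -0.24 in WT 1. The sum of 9 lung epithelial markers was lowest in KO 1, at 73310, where Sftpc read 12.71 against 15.37 or more on the other 5 arrays. Ager (14.32) and Cldn18 (9.18) were also lowest there, while Epcam (11.36) and Cdh1 (13.06) read highest there. The median of that list was -0.30 in both KO 1 and KO 3 and -0.31 in WT 1. The sum of 10 pericyte markers was highest in KO 1, at 19762. So was the sum of 4 liver markers, 3 of them dim, at 1367 against 548 or less on the other arrays. Alb read 10.31 in KO 1. The median of bright probe sets without a gene name, relative to that of bright named ones, was -0.23, -1.02 and -0.94 in WT 1 to 3 and -0.96, -0.46 and -0.03 in KO 1 to 3. The part of these, and of the cardiac markers above, in the low member levels of KO 1 was not tested.

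No gene of the lists that serve the chain passed the test. Among 45 assembly factors 26 read higher and 19 lower (median 0.02). Among those with the smallest p, Ndufaf7, a methyltransferase that acts on complex I, read 8.80, 8.72 and 8.93 in the WT arrays and 9.14, 9.21 and 9.20 in the KO arrays, a difference of 0.36 (SE 0.10, unadjusted p = 0.0131, adjusted p = 0.964 in limma). Cox11, which delivers copper to complex IV, and Cox20, a chaperone of its subunit COX2, also had all KO arrays above WT, by 0.32 (SE 0.13) and 0.24 (SE 0.09). Coa8 and Cox18, also of complex IV assembly, had all KO arrays below WT, by -0.21 (SE 0.10) and -0.31 (SE 0.18). In all, 4 of the 45 had separate groups with KO above and 2 with KO below, against 5.89% and 3.81% of all genes. Of 19 genes of electron carriers and coenzyme Q synthesis 8 read higher and 11 lower (median -0.03), and none passed. In that list 2 genes had all KO arrays above WT and 1, Cyc1, had them below (-0.16, SE 0.09). Cyc1 encodes cytochrome c1, a core subunit of complex III that falls outside the rule by its symbol. Coq8a, a kinase-like protein of coenzyme Q synthesis, had the smallest p of that list, with 7.67, 7.57 and 7.64 in the WT arrays and 8.21, 8.23 and 8.12 in the KO arrays. The KO arrays were tightly grouped above WT, at a difference of 0.56 (SE 0.13, adjusted p = 0.872).

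Of 17 genes of the citrate cycle and pyruvate dehydrogenase 6 read higher and 11 lower (median -0.05), and of 9 genes that exchange nucleotides and phosphate 5 read higher and 4 lower (median 0.00). Regulators of mitochondrial biogenesis gave 10 higher and 7 lower of 17 (median 0.03). Ppargc1a, the coactivator that raises respiratory gene expression, differed by 0.23 (SE 0.23), and its partner Nrf1 by -0.11 (SE 0.22). Gabpb1, a subunit of the ETS factor GABP, read 7.65, 7.78 and 7.49 in the WT arrays and 7.30, 6.81 and 6.83 in the KO arrays. All KO arrays lay below WT, at -0.67 (SE 0.22, unadjusted p = 0.0217, adjusted p = 0.964), while Gabpa, the DNA-binding subunit, differed by 0.03 (SE 0.14). None of these 3 lists had a member past the test.

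Mitochondrial ribosomal proteins, another large set of nuclear genes for mitochondria, had 32 of 76 higher and a median of -0.04. Cytosolic ribosomal proteins had 21 of 40 higher and a median of 0.00. In KO 1 the first of these sets stood at -0.05 and the other at -0.06, against -0.16 for the respiratory chain members. KO 1 was the lowest KO array for 28 of the 40 cytosolic ribosome genes (70.0%) and 34 of the 76 mitochondrial ribosome genes (44.7%), against 58 of the 82 members (70.7%). In KO 3 the mitochondrial ribosome stood at -0.13, where the respiratory chain stood at 0.10.

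**Figure D4:**
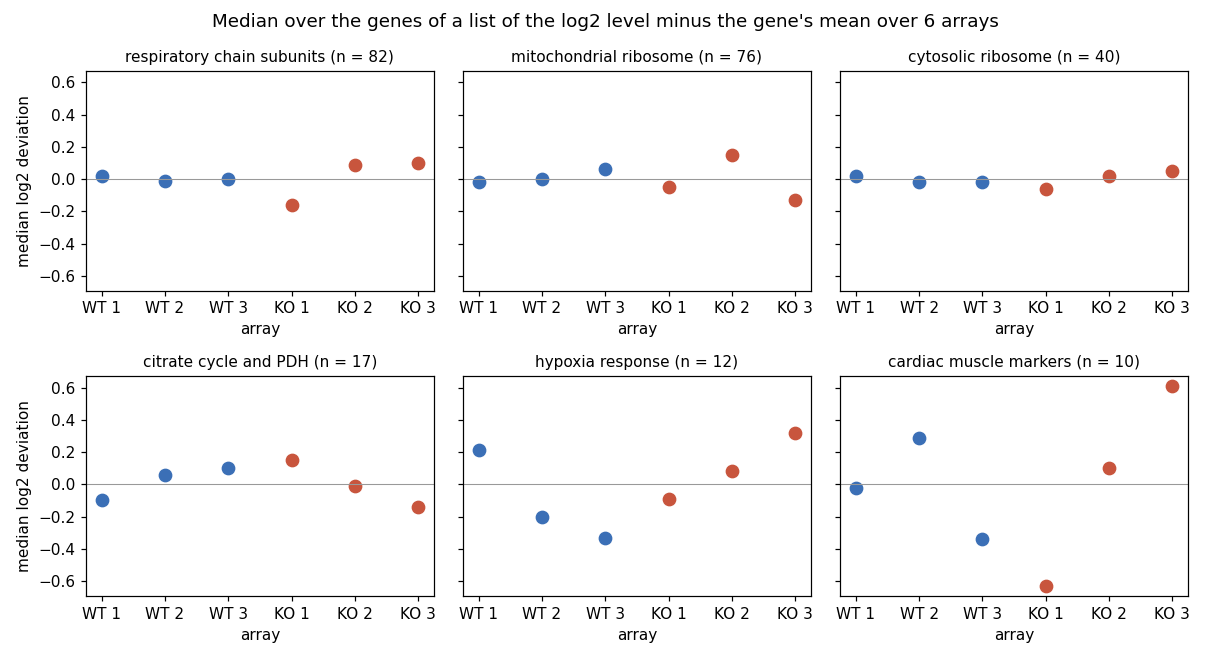
Median over the genes of 6 lists of the log2 level relative to each gene's mean over the 6 arrays (y axis), by array, WT in blue and KO in red. The respiratory chain median is lowest in KO 1 at -0.16 and the cardiac marker median is lowest there too at -0.63, while the citrate cycle median is highest there at 0.15.

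Promoters of respiratory genes are known for sites of the factors NRF1, GABP and YY1, so the promoter windows were searched for short words of these motifs and of GATA factors. RefSeq windows of GRCm38.p6, from 250 bases before to 50 after the start, were at hand for 67 of the 82 members. The NRF1 word GCATGCGC, on either strand, was in 9 of the 67 (13.4%), against 4.68% of the 14452 measured genes with a window. The ETS word CCGGAAG, the core of the GABP site, was in 17 (25.4% against 15%), and the YY1 word AAGATGGC was in 9 (13.4% against 4.07%). The GATA word AGATAA was in 6 (8.96% against 9.54%). The mitochondrial ribosome genes had shares of 11.9% (NRF1), 37.3% (ETS), 17.9% (YY1) and 16.4% (GATA), and the cytosolic ribosome genes had 5.71%, 48.6%, 8.57% and 5.71%. These are matches of letters, not sites, and no test was made.

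The YY1 word lay on the gene's strand and between 22 and 38 bases after the start in 7 of its 9 members, among them Ndufa3, Ndufs4 and Ndufs7. The GATA word was in Atp5g1, Atp5g3, Cox7a1, Cox7c, Ndufa12 and Ndufc2. Of these Cox7c has the largest difference of all members (0.65), with a WT mean of 6.98, near the median of all genes (6.88). The other 5 lie between -0.05 and 0.08. Stretches upstream of the start are shown for 3 members with the NRF1 word, one each of complexes II, IV and V. They read 5′ to 3′ on the gene's strand with the NRF1 word in capitals, and where it overlaps its own reverse complement the capitals cover both.
Sdhb: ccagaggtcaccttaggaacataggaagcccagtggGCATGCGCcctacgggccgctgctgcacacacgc
Cox6a1: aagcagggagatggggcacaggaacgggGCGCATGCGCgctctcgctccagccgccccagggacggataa
Atp5g2: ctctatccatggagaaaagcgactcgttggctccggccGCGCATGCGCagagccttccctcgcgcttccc
They lie at chr4:140961181-140961250 (plus strand), chr5:115349079-115349148 (minus strand) and chr15:102671058-102671127 (minus strand) of GRCm38.p6. In Cox6a1 and Atp5g2 the word and its reverse complement overlap to form a palindrome, and Sdhb holds it once. Their differences were -0.13 for Sdhb, 0.37 for Cox6a1 and 0.24 for Atp5g2 (SE 0.16 in each), and none passed the test. The other members with the NRF1 word differed by -0.33 (Uqcrc1), -0.12 (Ndufa8), -0.04 (Atp5k), 0.04 (Ndufa6), 0.07 (Uqcr11) and 0.07 (Atp5l).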

How the data were processed

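The authors deposited 1 linear intensity per probe set and array. Per the submitters' processing notes GCRMA and MAS5 were used, with no version, role or order given. Array medians of these intensities lay between 20.6 and 24.1, and the arrays were taken as normalised to each other. On the log2 scale used here, the median over all genes still ran from 6.72 in KO 3 to 7.01 in KO 1. Probe sets were named through their gene IDs and a gene table of GRCm38.p6: of 45101, 34945 name exactly 1 gene, 932 name several, 9160 have no name here and 64 are controls. Each gene took the probe set with the highest mean; for 26 of the 49 members with more than 1 probe set, these disagreed in sign. Values were transformed to log2(intensity + 16) without further scaling or filter. The files of the array runs, deposited beside the values, gave station and scan order and hold no expression values.

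KO and WT were compared over all 18193 genes in R 4.3.3 by limma 3.58.1, using lmFit and eBayes (trend = TRUE); tests were two-sided and adjusted by Benjamini-Hochberg, and the code was tested on simulated data. Named were the 5 members per direction with the smallest p, core subunits and isoforms. Members and lists were chosen with earlier results of these data known. Replicate numbers were not taken as pairs: residuals of same-numbered arrays correlated at -0.613, 0.0971 and -0.311. Alternatives covered pseudocount, scaling, probe set choice, variance model, batch and left-out arrays.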

Additional observations from a re-analysis of the deposited data

How the results depend on the processing

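No member passed an adjusted p of 0.05 in limma under any of 20 alternatives, with a lowest adjusted p of 0.366 (without KO 1). An unadjusted p under 0.05 was reached by 0 to 8 members, and by 424 to 1696 of all genes. The 8 came without KO 1 and were 9.76% of the members, near the 8.64% of all genes there. The count over all genes, 1 as reported, was 17 with arrays centred on their medians, 32 with fluidics station as a block, 10 within station 2, 0 without the intensity trend and 0 with the replicate block, and 0 to 1 without single arrays. When single arrays were left out, the median difference of complex III ran from -0.061 (without KO 3) to 0.055. That of complex IV ran from 0.012 to 0.146 (without KO 1). Complex I ran from -0.047 (without KO 2) to 0.127 (without KO 1), and complex II from -0.13 (without WT 3) to 0.003 (without KO 1). Complex V ran from -0.027 (without KO 2) to 0.091 (without KO 1). The cause was not tested. With the replicate block the median of all members stayed at 0.029. It was 0.024 within station 2, where WT is 1 array. With station as a block it was also 0.024, since that comparison rests on the same WT array. Of the 35 members covered by the naming rule, 21 changed sign under some alternative and 14 under none, among them Cox6a1, Ndufs5, Cox8b and Uqcrc1. With 3 arrays a group, the median SE of the members was 0.13, which limits what could be detected.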
